A study of Bos taurus with 8 samples.

Results

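The collagen genes described here are COL1A1, COL1A2, COL3A1, COL4A1, COL4A2, COL5A1, COL5A2, COL6A1, COL6A2 and COL6A3, which encode chains of collagen types I, III, IV, V and VI. They were found on the array through the RefSeq transcript of each probe, and the brightest probe of a gene was used where at least 4 of its 16 channel readings stood above background. Of the 10 genes, 4 had such a probe, namely COL1A1, COL1A2, COL3A1 and COL6A1, out of 6693 genes with a named probe that passed this filter. The other 6 had no probe matched by transcript and were not analysed here. Every value below therefore rests on 1 probe a gene, printed in 2 spots on each array, and all 4 probes were above background in 16 of 16 readings. Their transcripts were NM_001034039 for COL1A1, NM_174520 for COL1A2, NM_001076831 for COL3A1 and NM_001143865 for COL6A1.

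RNA came from the semitendinosus, a muscle of the hind limb, of bulls aged 15 months. Hereford and Holstein-Friesian, the breeds the series text calls well marbled, were each represented by 4 bulls and set against 4 bulls of Limousin, its lean breed. Every array paired a Hereford or Holstein-Friesian bull with a Limousin bull in the opposite dye, and each Limousin bull was used once on the Hereford slide and once on the Holstein-Friesian slide. Hereford was always in Cy5 on the first slide and Holstein-Friesian always in Cy3 on the second, so in the direct ratios breed, dye and slide cannot be told apart. No treatment is named in the labels, and all bulls of a breed form 1 group.

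Fibrillar collagens are the ropes of connective tissue. Type I, built from the products of COL1A1 and COL1A2, forms stiff fibres in tendon and in the sheaths around muscle bundles. Type III, built from COL3A1 alone, forms the finer network between muscle fibres and is often found in the same fibrils as type I. Type VI, to which COL6A1 contributes a chain, forms beaded filaments beside the basement membrane of each muscle fibre. In skeletal muscle, fibroblasts are the main source of all of these chains.

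Net of background, the median probe intensity was 97 to 139 units in Hereford, 30.5 to 46.5 in Holstein-Friesian, 96.5 to 118 in Limousin labelled with Cy5 and 63 to 88 in Limousin labelled with Cy3. No spot was saturated (0 on every array), and the collagen probes were bright, between the 87.1 and the 96.1 percentile of all kept probes. The 2 spots of a collagen probe differed by at most 0.15 log2 on any array. The muscle markers ACTA1, CKM, DES, MYH1, MYH2, MYH7, TNNT1, TNNC2, MYOT and MB were measured (10 of 12 listed), and none failed to rise above background in a breed. Hereford bull 1 stood apart in markers of tendon: all 6 measured markers of 11 listed were higher there than in its Limousin partner, by 1.15 log2 for MKX up to 3.73 for COMP and 3.75 for CILP2, and their summed level was 14.27 log2, against 11.32 to 11.89 in the other Hereford bulls, 11.01 to 12.17 in Holstein-Friesian bulls and 11.36 to 12.36 in Limousin bulls. The Hereford values of the collagen genes are given below with and without that bull. Calls of other genes that were lost without it are given too. Those tests left out replicate 1 of both breeds, so Holstein-Friesian array 1 was missing from them as well.

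COL3A1 was lower in every Holstein-Friesian bull than in its Limousin partner, and it was the collagen gene with the largest difference among the 4 measured. Its log2 ratio of Holstein-Friesian over Limousin was -1.75, -2.00, -4.23 and -2.14 in replicates 1 to 4. All of the bulls were therefore well below their partners, and bull 3 was far below the rest. The mean was -2.53 (SD 1.14, n = 4), a 5.77-fold lower signal, and it passed limma's test with an adjusted p of 0.0125. The SE in that test, 0.39, rests on the spread over the arrays of both breeds, not on these 4 ratios alone. In Hereford the same gene had ratios of 0.53, -0.61, -0.69 and -0.14, which lay on both sides of Limousin. In these bulk samples fewer collagen-making cells and less collagen RNA in each cell cannot be told apart.

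COL1A1 and COL1A2, the chains of type I collagen, were also below Limousin on all 4 Holstein-Friesian arrays. The ratios spread widely between arrays, and neither gene passed the test. COL1A1 had log2 ratios of -0.14, -0.69, -2.55 and -1.16, with a mean of -1.14 (SD 1.03, n = 4, limma adjusted p = 0.135). COL1A2 had ratios of -0.20, -0.73, -2.83 and -1.41, with a mean of -1.29 (SD 1.14, n = 4, limma adjusted p = 0.110). For both genes bull 1 was nearly level with its partner and bull 3 was the lowest. When arrays were only centred on their median, the median of all probes moved to -0.20 and 6678 of 17061 probes were called in Holstein-Friesian. In that setting both genes were called, COL1A1 at -1.78 (limma adjusted p = 0.0193) and COL1A2 at -1.92 (adjusted p = 0.0170). COL6A1 moved down in it as well, from -0.35 to -0.96. A p that misses the threshold with 4 bulls does not show that the breeds have equal levels.

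COL6A1 showed a small and even difference. Its log2 ratios in Holstein-Friesian were -0.20, -0.45, -0.41 and -0.32, a mean of -0.35 (SD 0.11, n = 4), which passed limma's test with an adjusted p of 0.0282. These ratios lay close together, unlike those of the fibrillar genes. This gene's call did not survive a comparison within 1 dye, as described below. It was also lost with processed signals (-0.36, limma adjusted p = 0.0907), with deposited ratios and on the breed's own arrays alone.

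Of the 4 measured collagen genes, 2 were called in Holstein-Friesian, both lower. Over the whole array 6.45% of 17061 probes were called in this comparison and 3.45% were called lower. The median log2 ratio of the 4 genes was -1.21, beside -0.01 for all kept probes. COL3A1 lost its call without replicate 2, at -2.71 log2 (limma adjusted p = 0.0730), and without replicate 4, at -2.66 (adjusted p = 0.0807). Both values were further below Limousin than the -2.53 with all replicates. Without replicate 3, which holds the lowest bull, COL3A1 was at -1.96 (limma adjusted p = 0.0246), and without replicate 1 at -2.79 (adjusted p = 0.0282). Over the whole array 1100 probes were called with all replicates, and 804, 78, 276 and 127 without replicates 1 to 4. COL6A1 lost its call without replicate 2, 3 or 4, with limma adjusted p-values of 0.133, 0.123 and 0.134.

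**Figure D1:**
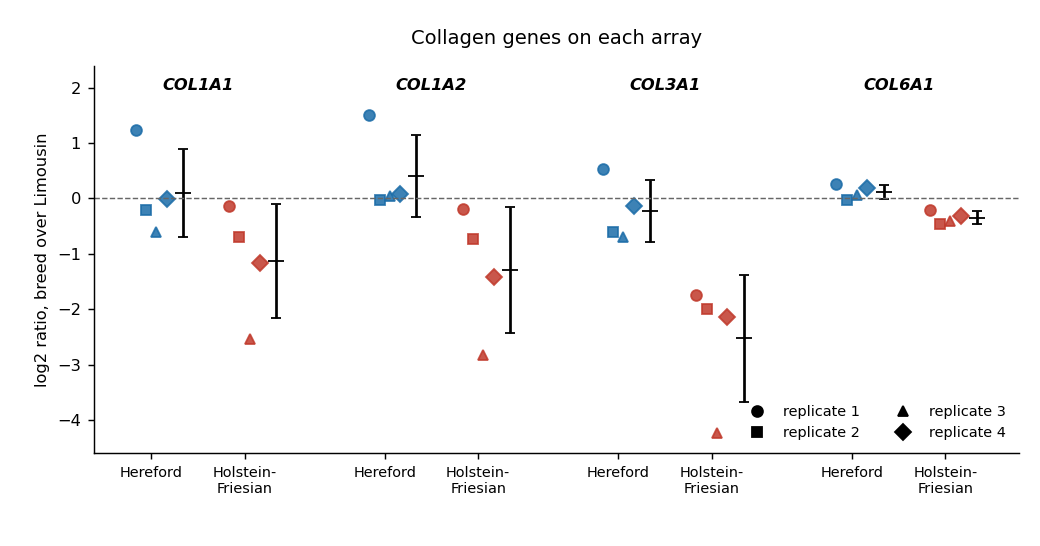
Log2 ratio of breed over Limousin (y axis) for each measured collagen gene, with 1 point for each array (Hereford in blue, Holstein-Friesian in red, marker shape by replicate) and the mean with its SD as a black bar. All 4 Holstein-Friesian points of COL3A1 lie between -4.23 and -1.75, below all of its Hereford points, while each gene has Hereford points on both sides of 0.

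The levels of single bulls show where these ratios come from. For COL3A1 the normalized level was 11.29, 11.59, 9.95 and 11.93 log2 intensity units in Holstein-Friesian bulls 1 to 4. It was 13.83, 13.01, 13.49 and 13.87 in Hereford bulls. Limousin bulls had 13.04, 13.59, 14.18 and 14.07 in Cy5 and 13.29, 13.62, 14.18 and 14.02 in Cy3. Every Holstein-Friesian bull was thus below every Hereford and every Limousin reading, whereas the Hereford and Limousin ranges overlapped. Ordered by mean, the levels were 11.19 ± 0.87 in Holstein-Friesian, 13.55 ± 0.40 in Hereford, 13.72 ± 0.52 in Limousin in Cy5 and 13.78 ± 0.40 in Limousin in Cy3 (SD, n = 4 each), and the last 3 did not differ beyond their spread.

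COL1A1 averaged 11.95 ± 0.69 log2 units in Holstein-Friesian and 13.69 ± 0.38 in Hereford, against 13.09 ± 0.57 in Limousin in Cy5 and 13.59 ± 0.53 in Limousin in Cy3 (SD, n = 4 each). The highest Holstein-Friesian bull, at 12.39, was above the lowest Limousin reading of 12.31, so these ranges touched. COL1A2 averaged 11.25 ± 0.77 in Holstein-Friesian and 12.92 ± 0.42 in Hereford, against 12.55 ± 0.65 and 12.52 ± 0.53 in Limousin in Cy5 and Cy3 (SD, n = 4 each). Here too the Holstein-Friesian maximum of 11.75 exceeded the Limousin minimum of 11.73. In both genes the Holstein-Friesian maximum lay below the lowest Hereford bull, at 13.36 for COL1A1 and 12.36 for COL1A2.

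The Holstein-Friesian bulls had the same rank order in all 3 fibrillar genes, from bull 3 through bulls 1 and 2 up to bull 4. Bull 3 was the lowest of its breed in COL1A1 (10.93), COL1A2 (10.11) and COL3A1 (9.95). The same array had the lowest median net signal of the Holstein-Friesian channels, 30.5, and the part of this in the result was not tested. Among Limousin bulls, bull 1 was the lowest for all 3 genes in both dyes, with COL1A1 at 12.31 in Cy5 and 12.84 in Cy3. It was the partner on the arrays with the highest ratios of the 3 genes in either breed.

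**Figure D2:**
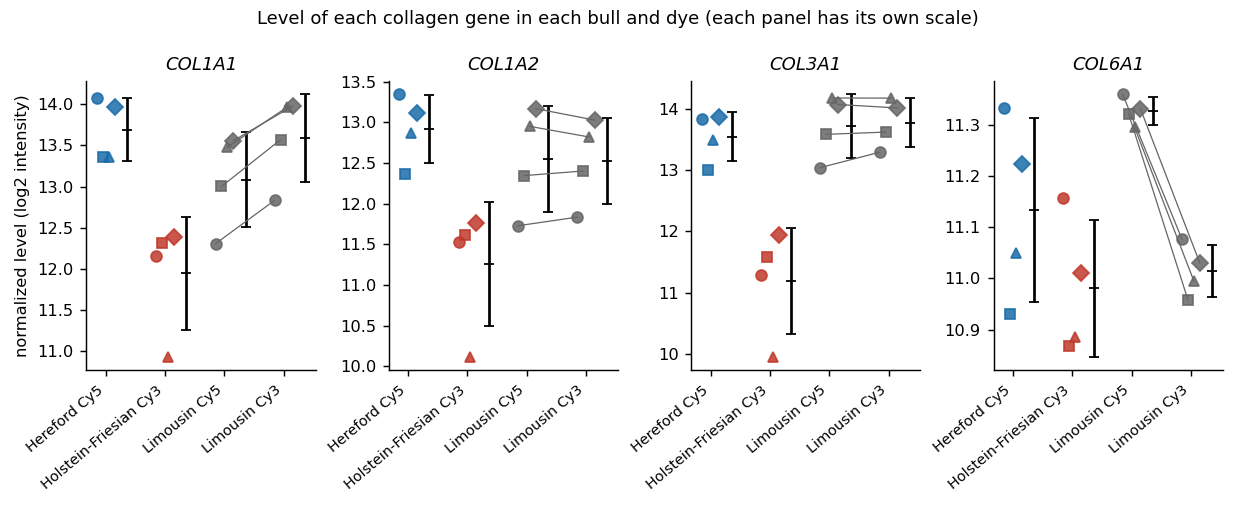
Normalized level (y axis, log2 intensity, own scale in each panel) of each collagen gene in each bull, for Hereford in Cy5 (blue), Holstein-Friesian in Cy3 (red) and the Limousin bulls in each dye (grey, lines join the 2 readings of a bull), with marker shape by replicate (circle, square, triangle and diamond for 1 to 4) and mean with SD in black. The Holstein-Friesian points of COL3A1, at 9.95 to 11.93, lie below all others, and all 4 Limousin lines slope up for COL1A1 and down for COL6A1.

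Because the Limousin bulls were read in both dyes, each gene's dye and slide offset could be measured. COL1A1 was lower in Cy5 than in Cy3, with Cy5 minus Cy3 differences of -0.53, -0.57, -0.48 and -0.42 log2 in Limousin bulls 1 to 4 (mean -0.50, SD 0.06, n = 4, limma adjusted p = 0.0339). COL6A1 was higher in Cy5 by 0.28, 0.36, 0.30 and 0.30 (mean 0.31, SD 0.04, n = 4, limma adjusted p = 0.0384). Both offsets pointed the same way in all 4 bulls. The offsets of COL3A1, -0.06 (SD 0.13, n = 4, limma adjusted p = 0.628), and COL1A2, 0.03 (SD 0.13, n = 4, limma adjusted p = 0.825), were close to 0. Over the array 4.71% of probes were called in this check.

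Within 1 dye, where Holstein-Friesian in Cy3 was set against the same-numbered Limousin bull in Cy3 on the other slide, COL3A1 kept its difference and COL6A1 lost it. COL3A1 had values of -2.00, -2.03, -4.23 and -2.08 log2, a mean of -2.59 (SD 1.09, n = 4, limma adjusted p = 0.0114). COL6A1 had values of 0.08, -0.09, -0.11 and -0.02, which lie on both sides of 0, a mean of -0.03 (SD 0.09, n = 4, limma adjusted p = 0.833). Its call in the direct ratio was thus about as large as its Limousin offset.

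For type I collagen, COL1A1 differed between the direct and the same-dye comparison. Its same-dye values were -0.67, -1.26, -3.03 and -1.58 log2, all further below Limousin than in the direct ratio, and the mean of -1.64 (SD 1.00, n = 4) passed with a limma adjusted p of 0.0466. COL1A2 stayed at -1.26 (SD 1.04, n = 4, limma adjusted p = 0.103). This comparison crosses slides, so slide cannot be told apart from breed in it. Each same-dye value is the direct ratio shifted by that Limousin bull's offset, so it is not an independent check.

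**Figure D3:**
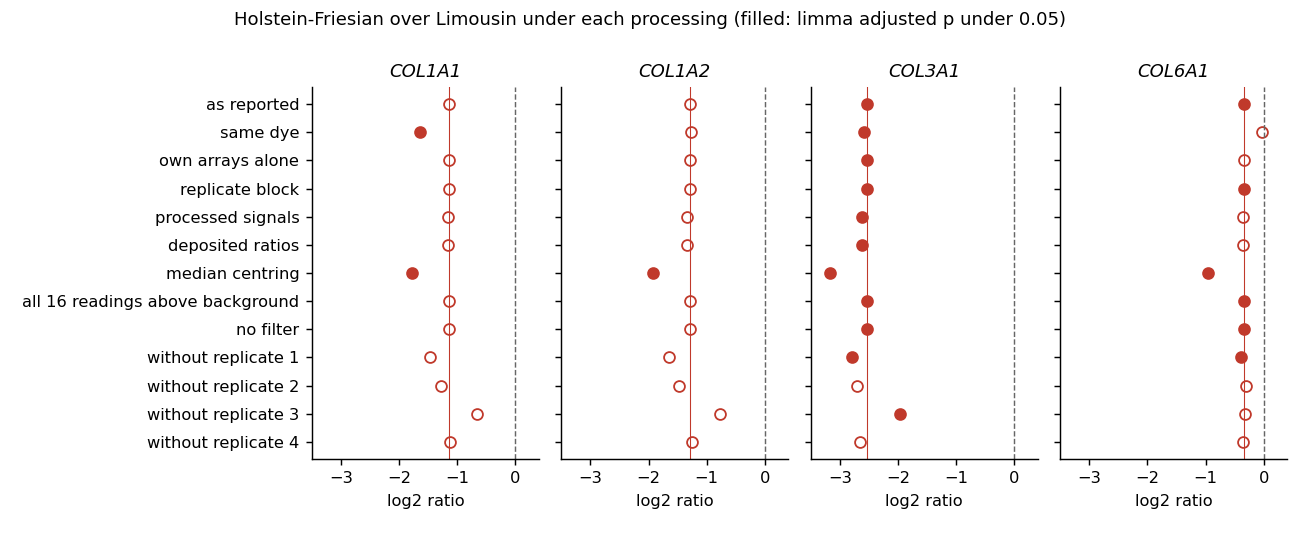
Log2 ratio of Holstein-Friesian over Limousin (x axis) of each collagen gene as reported and under each other processing (rows), with filled points where limma's adjusted p was under 0.05, a red line at the reported value and a dashed line at 0. COL3A1 stays between -3.17 and -1.96 and loses its call without replicate 2 and without replicate 4, while COL6A1 moves to -0.03 in the same dye.

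None of the 4 collagen genes was called by limma in Hereford, and 0 had an unadjusted p under 0.05, in a comparison in which 7.13% of 17061 probes were called. COL1A2 had log2 ratios of 1.51, -0.04, 0.05 and 0.08, a mean of 0.40 (SD 0.74, n = 4, limma adjusted p = 0.634). Only bull 1 was clearly above its partner, and without it the value was 0.03. COL1A1, with 1.24, -0.22, -0.60 and -0.01, had a mean of 0.10 (SD 0.80, n = 4, limma adjusted p = 0.914), which became -0.27 without bull 1. COL3A1 had a mean of -0.23 (SD 0.56, n = 4, limma adjusted p = 0.796), -0.48 without bull 1 and 0.13 when arrays were only centred on their median.

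The array with the high type I ratios in Hereford was the array with the high tendon markers. On it COMP, a cartilage and tendon matrix protein, had a log2 ratio of 3.73, THBS4, a thrombospondin of tendon, had 3.03 and FMOD, a small proteoglycan that binds collagen fibrils, had 2.10. On the other 3 Hereford arrays COMP lay between -0.10 and 0.03. By level, Hereford bull 1 was at 14.08 log2 for COL1A1 and 13.34 for COL1A2, beside 13.97 and 13.11 in Hereford bull 4. Its partner, Limousin bull 1, was the lowest Limousin bull for both genes. Holstein-Friesian array 1, with the same partner, had the highest mean tendon marker ratio of its breed (0.62) and COMP at 1.07. The part of tendon RNA, or of the low partner, in the type I ratios of Hereford bull 1 was not tested. COMP, THBS4, FMOD and CILP2 were chosen after their values were seen.

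COL6A1 in Hereford had log2 ratios of 0.26, -0.03, 0.05 and 0.19, a mean of 0.12 (SD 0.13, n = 4, limma adjusted p = 0.345) and 0.07 without bull 1. Within Cy5 it was -0.19, below Limousin, with values from -0.39 to -0.03. Its direction in Hereford thus depended on which Limousin reading was used, and these readings differ in both dye and slide. Neither value passed the test (limma adjusted p = 0.186 within Cy5).

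Taking both breeds together as marbled against lean, limma called no collagen gene (0 of 4, with 1 at an unadjusted p under 0.05), and 0.598% of probes were called. The mean of the Hereford and the Holstein-Friesian ratio for each Limousin bull gave COL3A1 -1.38 (SD 0.78, n = 4 Limousin bulls, limma adjusted p = 0.104), below 0 for all 4 bulls, and -1.64 without replicate 1. COL1A1 averaged -0.52 (SD 0.87), COL1A2 -0.45 (SD 0.85) and COL6A1 -0.11 (SD 0.12), with limma adjusted p-values of 0.501, 0.562 and 0.423. With the Limousin bull as a replicate block, COL3A1 was called (limma adjusted p = 0.0405).

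The breeds were also set against each other through their shared Limousin bulls, as the Hereford ratio minus the Holstein-Friesian ratio. The values were 2.30 log2 for COL3A1 (SE 0.55, limma adjusted p = 0.0684), 1.69 for COL1A2 (adjusted p = 0.159), 1.24 for COL1A1 (adjusted p = 0.254) and 0.46 for COL6A1 (SE 0.10, adjusted p = 0.0500106). None passed in limma (0 of 4, with 3 at an unadjusted p under 0.05), while 2.68% of probes did. With the Limousin bull as a replicate block, COL3A1 (limma adjusted p = 0.0221) and COL6A1 (adjusted p = 0.0142) were called. A gene's dye offset enters this difference once through each breed, so it counts double. With both breeds set against Limousin in their own dye, an alternative chosen after seeing the data, the difference of COL6A1 turned to -0.16 (limma adjusted p = 0.440), that of COL1A1 was 2.24 (adjusted p = 0.0810), that of COL1A2 1.64 (adjusted p = 0.163) and that of COL3A1 2.42 (adjusted p = 0.0697).

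The spread of the ratios between arrays was itself uneven among the collagen genes. Between Holstein-Friesian arrays the SD of the log2 ratio was 1.14 for COL3A1, 1.14 for COL1A2 and 1.03 for COL1A1, which placed them at the 99.6, 99.6 and 99.4 percentile of all kept probes, where the median SD was 0.18. These 3 probes were also brighter than most, at the 93.5 to 96.1 percentile of brightness. Their SDs were not ranked among probes of like brightness, here or in Hereford. COL6A1, with an SD of 0.11, was at the 29.5 percentile. In Hereford the SDs were 0.80 for COL1A1, 0.74 for COL1A2, 0.56 for COL3A1 and 0.13 for COL6A1, at the 97.0, 96.1, 90.5 and 24.8 percentile, beside a median of 0.24. In Hereford these values rested on the array of bull 1 and its Limousin partner. Over the other 3 Hereford arrays the SDs were 0.30 for COL1A1, 0.06 for COL1A2, 0.30 for COL3A1 and 0.11 for COL6A1, at the 72.3, 11.8, 72.2 and 28.2 percentile, beside a median of 0.19. The ratios of the fibrillar genes were thus among the most variable between Holstein-Friesian arrays, and between Hereford arrays only with bull 1 included. Each ratio also holds the spread of the Limousin partners. By level, the SDs of COL1A1, COL1A2 and COL3A1 were 0.38, 0.42 and 0.40 in Hereford and 0.69, 0.77 and 0.87 in Holstein-Friesian. In Limousin they were 0.57, 0.65 and 0.52 in Cy5 and 0.53, 0.53 and 0.40 in Cy3.

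The 3 fibrillar genes followed each other from array to array. Over the 8 arrays, which share the 4 Limousin bulls, the Pearson correlation of the log2 ratios was 0.98 between COL1A1 and COL1A2, 0.96 between COL1A2 and COL3A1 and 0.93 between COL1A1 and COL3A1. Between COL6A1 and each of them it was 0.77 to 0.89. Without Hereford bull 1 the correlations among the fibrillar genes were 0.97, 0.95 and 0.91 over 7 arrays, and those with COL6A1 were 0.64 to 0.84. These are descriptions over 8 arrays of 2 breeds, and part of any such correlation is the difference between the slides.

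The ratio of COL3A1 was below that of COL1A1 on all 8 arrays. The gap averaged -1.39 log2 on the Holstein-Friesian arrays (-1.68 to -0.97) and -0.33 on the Hereford arrays (-0.71 to -0.09), or -0.21 without Hereford bull 1. Within 1 dye the gaps were -0.95 and -0.77, still below 0 for 4 of 4 bulls in each breed. The distance between the breeds in this gap was therefore much smaller within 1 dye, where the offset of COL1A1 falls away. The gap between the chains of type I, COL1A2 minus COL1A1, was -0.16 on Holstein-Friesian arrays and 0.30 on Hereford arrays (0.31 without bull 1). Within 1 dye it was 0.37 in Holstein-Friesian and -0.23 in Hereford. Its sign thus depended in both breeds on which Limousin reading was used, and these readings differ in both dye and slide.

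Among 6638 named genes outside the 10, those whose log2 ratios over the 8 arrays were most like the mean of the fibrillar genes were SGF29, WASL, ADAL, GINS1 and GALNT1, with Pearson correlations of 0.97. Their mean ratios in Holstein-Friesian were small beside those of the collagens, from -0.40 for GALNT1 to -0.13 for WASL. The genes most like COL6A1 were CHORDC1, TTC5, POPDC2, KCTD10 and UBE2E3, with correlations of 0.98. With 8 points and so many genes, correlations of this size describe the ranking only.

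Few other collagens could be measured. Of 32 further collagen genes listed, 4 were measured, COL8A1, COL10A1, COL15A1 and COL18A1, and limma called none in either breed (0 of 4, with 0 at an unadjusted p under 0.05). Among all 17061 probes 6.45% were called in Holstein-Friesian and 7.13% in Hereford, and 4011 and 4122 had an unadjusted p under 0.05. A count of 0 among 4 is near the share called. In Holstein-Friesian their median log2 ratio was -0.19 and their values ran from -0.58 to 0.02. COL15A1, a collagen of the basement membrane zone, averaged -0.29 (SD 0.40, limma adjusted p = 0.322), and COL8A1, a short-chain network collagen, averaged 0.02 (SD 0.19, limma adjusted p = 0.937). The basement membrane linkers NID1 and NID2, the measured 2 of 12 listed, averaged 0.02 and -0.72, and neither passed (limma adjusted p = 0.934 and 0.0808).

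Genes that process, fold and cross-link collagen chains moved in both directions in Holstein-Friesian: of 23 measured (39 listed), 2 were higher, 2 were lower and 19 did not pass, with a median of -0.04. The share of all probes called in this comparison was 6.45%. SPARC, which encodes a matrix protein that binds collagen, fell, with log2 ratios of -0.38, -1.41, -2.05 and -1.15 (mean -1.24, SD 0.69, n = 4, limma adjusted p = 0.0472). Its bulls lay in the order of COL1A1 except for bulls 2 and 4, with bull 3 the lowest and bull 1 the highest. LOXL1, a lysyl oxidase-like enzyme of cross-linking, fell by 0.66 (SD 0.09, n = 4, limma adjusted p = 0.0114), with values from -0.75 to -0.53.

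On the other side, PCOLCE2, which enhances cleavage of the procollagen C-terminus, rose by 1.07 log2 in Holstein-Friesian (SD 0.41, n = 4, limma adjusted p = 0.0132). P4HA1, a catalytic subunit of prolyl hydroxylase, rose by 0.53 (SD 0.24, n = 4, limma adjusted p = 0.0282). Within 1 dye SPARC (-1.40), LOXL1 (-0.53) and PCOLCE2 (0.97) kept their calls, with limma adjusted p-values of 0.0308, 0.0390 and 0.0146, and P4HA1 (0.44) had one of 0.0746. When arrays were only centred on their median, P4HA1 was at 0.06 (limma adjusted p = 0.793) and PCOLCE2 at 0.50 (adjusted p = 0.0588), and neither was called. LOXL1 was at -1.03 with processed signals.

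In Hereford 3 of these 23 genes were higher, 1 was lower and 19 did not pass, with a median of 0.06. The share of all probes called there was 7.13%. FKBP14, a folding enzyme of the endoplasmic reticulum, rose by 0.90 log2 (SD 0.39, n = 4, limma adjusted p = 0.0406), P4HA1 by 0.55 (SD 0.20, adjusted p = 0.0249) and PLOD2, a lysyl hydroxylase, by 0.40 (SD 0.17, adjusted p = 0.0203). PCOLCE2 fell by 0.73 (SD 0.34, n = 4, limma adjusted p = 0.0401). It thus had opposite directions in the 2 breeds, and its Hereford minus Holstein-Friesian difference of -1.80 passed (limma adjusted p = 0.0174), also at -1.59 with each breed in its own dye (adjusted p = 0.0295). Within 1 dye P4HA1 (0.64) and PLOD2 (0.43) kept their Hereford calls (limma adjusted p = 0.0366 and 0.0481), whereas FKBP14 (0.75) and PCOLCE2 (-0.62) lost them (adjusted p = 0.0634 and 0.0671). Without replicate 1 of both breeds FKBP14 (0.78), P4HA1 (0.58) and PLOD2 (0.35) were not called (limma adjusted p = 0.0751, 0.0566 and 0.0624). PCOLCE2 (-0.60) was still called (limma adjusted p = 0.0420). PLOD2 was at 1.56 with processed signals, far above its reported value. SPARC and FKBP14 were chosen after their values were seen.

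Genes of collagen breakdown gave 1 call in each breed. Of 12 measured (22 listed), 0 were higher and 1 was lower in each breed, with medians of 0.03 in Holstein-Friesian and -0.03 in Hereford. Among all probes 6.45% were called in Holstein-Friesian and 7.13% in Hereford, so a count of 1 among 12 is near that share. In Holstein-Friesian the gene was MMP15, a membrane-bound metalloproteinase, at -0.74 log2 (SD 0.24, n = 4, limma adjusted p = 0.0330) and at -1.21 within 1 dye (adjusted p = 0.00947). In Hereford it was MMP1, interstitial collagenase, which fell by 0.23 (SD 0.10, n = 4, limma adjusted p = 0.0447). Its call was lost without replicate 1 of both breeds (-0.19, limma adjusted p = 0.125) and with processed signals (-0.56, adjusted p = 0.0667). It was kept within 1 dye (-0.30, limma adjusted p = 0.0394). Of the collagen receptors 3 of 13 listed were measured, DDR1, DDR2 and ITGA2, and limma called 0 in either breed, with 1 at an unadjusted p under 0.05 in each. DDR1, a receptor tyrosine kinase for collagen, averaged -0.40 in Holstein-Friesian and -0.36 in Hereford, and ITGA2, an integrin subunit, averaged 0.16 and -0.11.

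TGF-beta signalling is the classic inducer of fibrillar collagen transcription. Of 11 measured genes of this list (20 listed), 1 was higher and 1 lower in Holstein-Friesian, and 0 were higher and 1 lower in Hereford, with medians of 0.18 and 0.16. The shares of all probes called were 6.45% in Holstein-Friesian and 7.13% in Hereford. LTBP2, a latent TGF-beta binding protein family member of elastic fibres, rose by 1.66 log2 in Holstein-Friesian (SD 0.65, n = 4, limma adjusted p = 0.0144). SMAD2, a transducer of the pathway, fell by 0.49 there (SD 0.10, n = 4, limma adjusted p = 0.0244), but within 1 dye its value was -0.14 (adjusted p = 0.437). TGFB3, a ligand, fell by 0.63 in Hereford (SD 0.29, n = 4, limma adjusted p = 0.0250), and within 1 dye its value was -0.33 (adjusted p = 0.180).

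Leaving out 1 Limousin bull with its arrays cost calls on these genes and the marker genes below, as it did over the whole array. Of 10 such genes called in Holstein-Friesian, 8 were still called without replicate 1, 0 without replicate 2, 2 without replicate 3 and 0 without replicate 4, with limma adjusted p-values up to 0.190. Of 10 called in Hereford, 5, 0, 1 and 0 were still called, with adjusted p-values up to 0.194. Over the whole array, the probes called in Holstein-Friesian went from 1100 to 804, 78, 276 and 127 without replicates 1 to 4. In Hereford they went from 1217 to 1055, 45, 333 and 30.

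**Figure D4:**
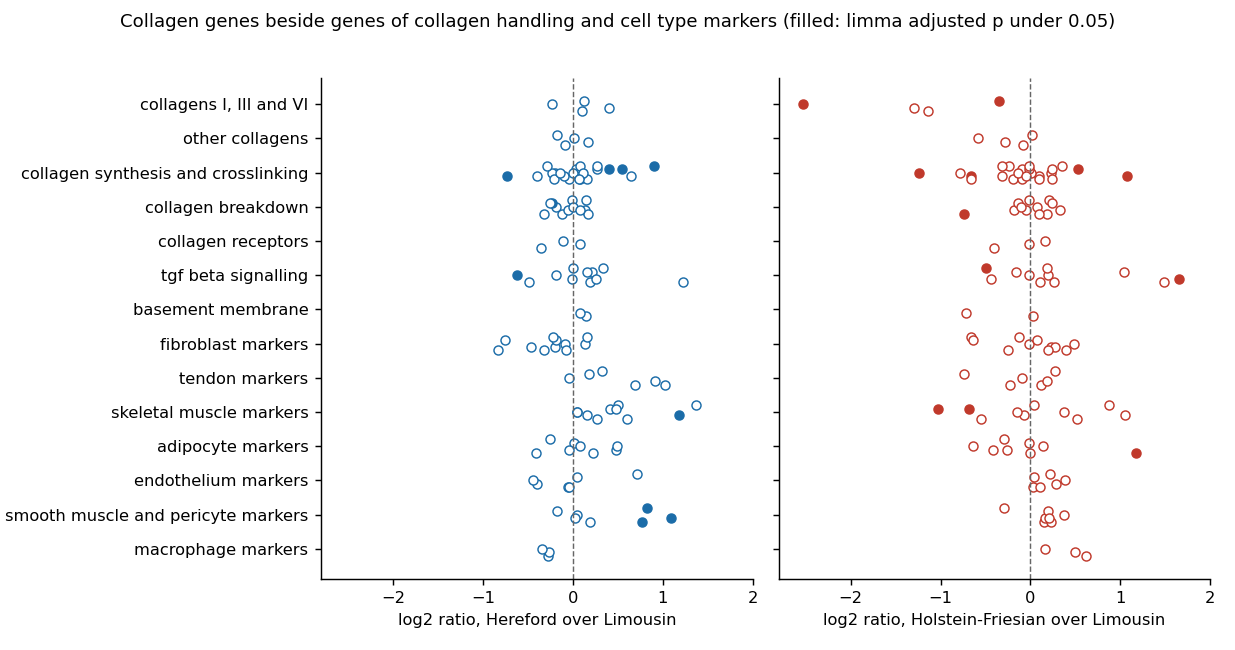
Log2 ratio over Limousin (x axis) of each measured gene of each list (rows), in Hereford (left, blue) and Holstein-Friesian (right, red), with filled points where limma's adjusted p was under 0.05. The collagens of types I, III and VI all lie below 0 in Holstein-Friesian, down to -2.53, while there the other lists lie on both sides of 0 except the 6 endothelium and 3 macrophage markers, which lie above it with no call.

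Markers of fibroblasts, the main collagen-making cells, showed no called change beside the collagens. Of 11 measured (18 listed), limma called 0 in Holstein-Friesian and 0 in Hereford, with 1 and 2 at an unadjusted p under 0.05 and medians of 0.07 and -0.20. Over the array 6.45% and 7.13% of 17061 probes were called, and 4011 and 4122 had an unadjusted p under 0.05. A count of 0 among 11 is near the share called, so it does not show that fibroblast content was unchanged. In Holstein-Friesian 6 of the 11 had values above 0 and 5 below it, from -0.66 to 0.48. DCN, a small proteoglycan of fibroblasts, averaged 0.23 log2, VIM, an intermediate filament, 0.20 and PDGFRA, a growth factor receptor of fibroblasts, 0.27. LUM, another proteoglycan, averaged -0.66 (SD 0.35, limma adjusted p = 0.118), and S100A4 averaged -0.64 (SD 0.47, limma adjusted p = 0.216). The list's mean ratio was 0.00, 0.17, -0.23 and 0.05 on the 4 Holstein-Friesian arrays, and its summed level was 14.76 to 15.42 log2 in Holstein-Friesian and 14.57 to 15.08 in Hereford, against 14.93 to 15.35 in Limousin. DCN, VIM and PDGFRA were chosen after their values were seen, and each was below 0 in Holstein-Friesian when arrays were only centred on their median (-0.43, -0.46 and -0.27), a setting that also moved COL3A1 to -3.17.

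Markers of other cell types gave calls in some lists, in comparisons that called 6.45% of all probes in Holstein-Friesian and 7.13% in Hereford. Of 6 tendon markers limma called 0 in either breed (0 at an unadjusted p under 0.05), with MKX and KERA averaging 0.27 and -0.74 log2 in Holstein-Friesian and 0.32 and 0.18 in Hereford. Of 10 muscle markers, MB (-1.02, limma adjusted p = 0.0165) and TNNC2 (-0.68, adjusted p = 0.0187) were lower in Holstein-Friesian. Within 1 dye both calls were lost, with MB at -0.56 (limma adjusted p = 0.114) and TNNC2 at -0.11 (adjusted p = 0.481). MYH7, the slow myosin, was above Limousin in all 4 bulls of each breed: it was called in Hereford (1.18, limma adjusted p = 0.0468), not in Holstein-Friesian (1.06, adjusted p = 0.0681), and in the marbled breeds together (1.12, adjusted p = 0.0459). Within 1 dye it was called in both (1.50 in Holstein-Friesian and 0.73 in Hereford, limma adjusted p = 0.00277 and 0.0366). In Hereford it was also called without replicate 1 of both breeds (1.38, limma adjusted p = 0.0208). Of 8 adipocyte markers only CFD, adipsin, was called in Holstein-Friesian, where it was higher (1.17, limma adjusted p = 0.0165, and within 1 dye 1.01, adjusted p = 0.0267). Most of this list went the other way there, with 6 of the 8 values below 0 and a median of -0.14. In Hereford limma called 0 of them (1 at an unadjusted p under 0.05).

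Of 7 smooth muscle and pericyte markers 3 were higher in Hereford, where 7.13% of all probes were called. They were CNN1 by 1.09 log2, MYL9 by 0.83 and RGS5 by 0.77 (limma adjusted p = 0.0253, 0.0304 and 0.00814). MYL9 lost its call without replicate 1 of both breeds (0.72, limma adjusted p = 0.0936). In Holstein-Friesian 0 of these markers were called (1 at an unadjusted p under 0.05). Of 6 endothelium markers limma called 0 in Holstein-Friesian and Hereford (0 and 1 at an unadjusted p under 0.05), with TEK at 0.22 in Holstein-Friesian and 0.71 in Hereford and ESAM at 0.38 and -0.44. Of 3 macrophage markers limma called 0 in either breed (1 each at an unadjusted p under 0.05), with CD14 at 0.49 and -0.26 and CD68 at 0.17 and -0.34. The part of these cell types in the collagen values was not tested.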

How the data were processed

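Total RNA, extracted with Trizol per the labels' protocols, was hybridised to 8 bovine 2-colour Agilent arrays. Agilent Feature Extraction 10.7.3.1 gave median spot and background signals as intensity, per the file headers. The authors deposited a value table of log10 ratios (Cy5 over Cy3) that matched the scanner's own log ratio in all 44407 spots of each array and was not turned for the Holstein-Friesian arrays. Flags (other columns) for background, saturation and outliers came from the scanner software, per the file headers.

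Spot signals are held as medians over pixels, and these were used. Background was corrected with normexp (offset 50), ratios were loess-normalized (span 0.3) in limma 3.58.1 under R 4.3.3 with statmod 1.5.0, turned to log2 of breed over Limousin, and averaged over spots of a probe without control spots and the 6 to 29 outlier spots per array. Of 21475 probes, 17061 with at least 4 of 16 readings well above background were tested. Names came from RefSeq (assembly ARS-UCD2.0), which named 8297 probes; the array annotation follows another build, so no positions are given. limma was fitted over all 8 arrays, with Benjamini-Hochberg adjustment over all 17061 probes and calls at 0.05, two-sided. Levels by channel were scaled between arrays with limma's Aquantile. The marbled comparison was fitted over 4 means, 1 per Limousin bull. Figures used matplotlib 3.10.9.

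Per the labels, arrays of the same number on the 2 slides hold the same Limousin bull, and the numbers therefore pair them; same-numbered arrays deviated together with correlations of 0.41, 0.27, 0.50 and 0.10 (block correlation 0.31). The labels give separate bulls. The members and the gene lists were chosen with earlier results of these data known. Named genes were up to 4 called genes per list by smallest p, otherwise the 2 of smallest p, and the 5 most alike in pattern. Alternatives were processed signals, deposited ratios, median centring, other filters, left-out replicates, the replicate block, each breed's own arrays alone, and same-dye comparisons (that of the difference between breeds was chosen after seeing the data). The test was tried on simulated data first. The number of arrays limits the precision.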

Additional observations from a re-analysis of the deposited data

Results flagged for a closer look

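Single arrays stood apart from the other 3 of their breed in 6 of the 48 groups of 4 values examined. The rule marks about 1 in 20 groups by chance, but that rate cannot be set against this count. The groups hold genes chosen after their values were seen and genes that vary together from array to array. For collagens these were COL1A2 in Hereford bull 1 (1.51 log2 over Limousin) and COL3A1 in Holstein-Friesian bull 3 (-4.23). The others were COMP (3.73), CILP2 (3.75) and NID1 (0.56) in Hereford bull 1 and SMAD2 (-0.64) in Holstein-Friesian bull 1.

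The Hereford ratio minus the Holstein-Friesian ratio passed limma's test for 6 named genes. It was -1.80 for PCOLCE2, -1.58 for CFD and -0.82 for TGFB3, which were lower in Hereford than in Holstein-Friesian, and 1.43 for MB, 1.16 for TNNC2 and 0.83 for SMAD2, which were higher in Hereford. In this difference dye and slide cannot be told apart from breed, and a gene's dye offset counts double. The Limousin bulls read 0.57 higher in Cy5 than in Cy3 for TNNC2, 0.47 for MB and 0.35 for SMAD2, with Cy5 minus Cy3 at -0.11 for PCOLCE2, -0.17 for CFD and -0.29 for TGFB3. With each breed set against Limousin in its own dye, the difference kept its call for PCOLCE2 (-1.59, limma adjusted p = 0.0295) and lost it for CFD (-1.25, adjusted p = 0.0686), MB (0.50, adjusted p = 0.323), TGFB3 (-0.23, adjusted p = 0.510), SMAD2 (0.13, adjusted p = 0.638) and TNNC2 (0.02, adjusted p = 0.952).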

How the results depend on the processing

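Of 180 alternative values of the 4 collagen genes, 153 kept their direction and their side of the threshold, 14 gained a call, 9 lost one and 4 reversed. Of 540 for the other named genes, 373 kept both, 16 gained a call, 142 lost one and 9 reversed. The causes were not tested.

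The count of collagen genes called in Holstein-Friesian, 2, became 1 with processed signals, 1 with deposited ratios, 4 with median centring and 1 on its own arrays alone, and was 0 to 2 without 1 replicate. In the difference between breeds 0 became 1 with processed signals, deposited ratios, all 16 readings above background or no filter, and 4 with median centring. With the replicate block, 2 were called in the difference and 1 in the marbled breeds, and no other collagen call changed.

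The array-wide counts of probes called were 1217 in Hereford, 1100 in Holstein-Friesian, 102 in the marbled breeds and 458 in the difference. Median centring gave 315, 6678, 950 and 6219, and moved the share called higher to 87.0%, 29.0%, 23.1% and 78.1%, against 47.6%, 46.5%, 53.9% and 57.2% as reported; it moved the median of all probes to 0.10 in Hereford, -0.20 in Holstein-Friesian and 0.36 in the difference. Relative to that median COL3A1 was at -2.97 and COL6A1 at -0.76 in Holstein-Friesian. Both were still further below Limousin than the -2.53 and -0.35 as reported. Processed signals gave 2157 in Holstein-Friesian, 444 in the marbled breeds and 974 in the difference, with 66.3% higher in the difference, and deposited ratios gave 2129, 438 and 979, with 67.6%. The marbled count was 371 with all 16 readings above background and 42 with no filter. The replicate block gave 909 marbled probes, with 43.2% higher, and 1715 in the difference. Hereford had 27 on its own arrays alone and 634 in the same dye, and the difference had 240 in the same dye, an alternative chosen after seeing the data. Without 1 replicate the counts were 30 to 1055 in Hereford, 78 to 804 in Holstein-Friesian, 0 to 1 in the marbled breeds (2340 to 3341 at an unadjusted p under 0.05) and 0 to 457 in the difference.

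Reversed values in Hereford were COL3A1 with median centring (0.13), COL6A1 (-0.19) and NID1 (-0.080) in the same dye, and, without 1 replicate, COL1A1 (-0.27 to 0.34), COMP (-0.031 to 1.25) and THBS4 (-0.085 to 1.05). In the difference COL6A1 (-0.16), ITGA2 (0.16), ESAM (0.49) and CD68 (0.021) reversed in the same dye. In Holstein-Friesian DCN (-0.43), VIM (-0.46) and PDGFRA (-0.27) reversed with median centring. The mean over all probes of a gene was not run, since each collagen gene had 1 probe. Dim Holstein-Friesian channels and 4 arrays a breed limit what these calls can resolve.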
